A study of Mus musculus with 2 samples.

Results

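Integrins are cell surface receptors made of 1 α and 1 β chain, and those described here anchor cells to collagen, laminin and fibronectin. The 10 genes were Itga1, Itga2, Itga5, Itga6, Itga8, Itga9, Itgav, Itgb1, Itgb3 and Itgb5, of 36461 gene symbols in the data. The genes were chosen by name as subunits of matrix receptors, and all 10 were found in both libraries through their Ensembl identifiers.

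The β1 chain pairs with most of the α chains and gives receptors with different ligands. α1β1 and α2β1 bind collagens, α6β1 binds laminins, α5β1 is the classical fibronectin receptor, and α8β1 and the αv integrins recognise the RGD peptide of fibronectin, vitronectin and related proteins. αv integrins also release TGF-β from its latent complex, which is one way in which stellate cells of an injured liver are driven towards collagen production. α9β1 binds tenascin-C and osteopontin, and β3 and β5 are partners of αv.

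RNA-seq was performed on adherent liver cells of adult male C57/Bl6 mice after 5 weeks of injury with the hepatotoxin carbon tetrachloride (CCl4). The control library came from Foxf1 fl/fl littermates. The other came from αSMACreER;Foxf1 fl/fl mice, written αSMACreER;Foxf1-/- below, in which a Cre that tamoxifen injections activate, under the α-smooth muscle actin promoter, deletes Foxf1 in cells that have switched on this gene. Both groups carried floxed Foxf1 alleles, and cells that do not express the Cre keep the gene. Cells were allowed to attach for 2 h, and samples were pooled to make 1 library per genotype, so the differences below have no replicate check and carry no p-values. The level of Foxf1 itself was not analysed here.

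Values are FPKM, reads divided by transcript length and by library size, which allow levels to be compared between genes. Low FPKM values fell near multiples of 1 read, and from this spacing about 9815000 mapped reads were estimated for Foxf1 fl/fl and 11255000 for αSMACreER;Foxf1-/-. Such values came within 0.1 of a whole read in only 48.2% and 50.7% of cases, which makes read numbers rough. Intervals at 95% follow from them, cover counting error only and leave out differences between animals. Fold changes are the log2(FPKM + 0.1) of αSMACreER;Foxf1-/- minus that of Foxf1 fl/fl, after the former was divided by 1.02, the median ratio between the libraries. This scale understates the change of genes near 0, and the interval beside a fold change is that of the ratio without the added 0.1.

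The libraries held RNA of many liver cell types. The 12 Kupffer cell and macrophage markers summed to an FPKM of 8935 in Foxf1 fl/fl and 7746 in αSMACreER;Foxf1-/-, the 11 endothelial markers to 1216 and 1183, and the 13 stellate cell and myofibroblast markers to 303 and 404. Of the latter, Des had 1.70 and 3.29, Lrat had 0.0778 and 0.111, and Reln had 0.683 and 0.313. Among macrophage markers, Clec4f had 1117 and 753, Vsig4 had 268 and 219, and Timd4 had 54.9 and 41.1. Endothelial Stab2 had 64.0 and 85.9, Lyve1 had 66.1 and 77.3, and Clec4g had 254 and 187. Although the endothelial sum was lower in αSMACreER;Foxf1-/-, 9 of its 11 genes were higher there after scaling. The 2 lower ones were Clec4g and Gpihbp1 (281 and 211). Des, Lrat and Reln were thus below these macrophage and endothelial genes, although the cells were labelled stromal. The stellate cell list as a whole was uneven, since Dcn (127 and 186) and Ecm1 (143 and 178) made up most of its sum and were above Stab2, Lyve1 and Timd4. Hepatocyte markers summed to 3998 and 1734 and neutrophil markers to 2038.5 and 859. Cholangiocyte markers summed to 553 and 655, most of it Spp1 (495 and 606), which is also read as a ligand below. Of the 5 cholangiocyte markers with a mean FPKM of at least 1, 3 had a higher value in αSMACreER;Foxf1-/- and 2 a lower one. Platelet markers summed to 77.2 and 64.1, T and NK cell markers to 87.4 and 91.2 and B cell markers to 58.1 and 62.1. Mesothelial markers summed to 34.7 and 43.0 and smooth muscle markers to 10.6 and 11.4. Listed at 0 were Gp6 in both libraries, Actg2 in Foxf1 fl/fl and Ly6g in αSMACreER;Foxf1-/-. Several of these cells carry integrins, and their part in the values below was not tested. In such a mixture, fewer cells of a type and less RNA per cell cannot be told apart.

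The matrix-binding integrins fell into an abundant and a sparse set, which were the same in both libraries. Itgb1, Itga5, Itgb5, Itgav and Itga9 each had an FPKM over 40 in both, whereas Itga6, Itgb3, Itga8, Itga1 and Itga2 were under 15 in both. Between the libraries, 8 of the 10 genes had a higher value in αSMACreER;Foxf1-/-, and 2, Itga8 and Itgb5, had a lower one. Among the 9 members that passed the filter below, 7 were higher, beside 50.4% of all genes that passed it. The collagen receptor genes Itga1 and Itga2 were the only members at least 1.5-fold apart under the scaling and added 0.1 used, where 26% of all genes that passed the filter were, in either direction. Itga2 had too few reads to pass the filter used for counts over genes, a mean FPKM of at least 1, and its value depended on the constant added before the logarithm.

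**Figure D1:**
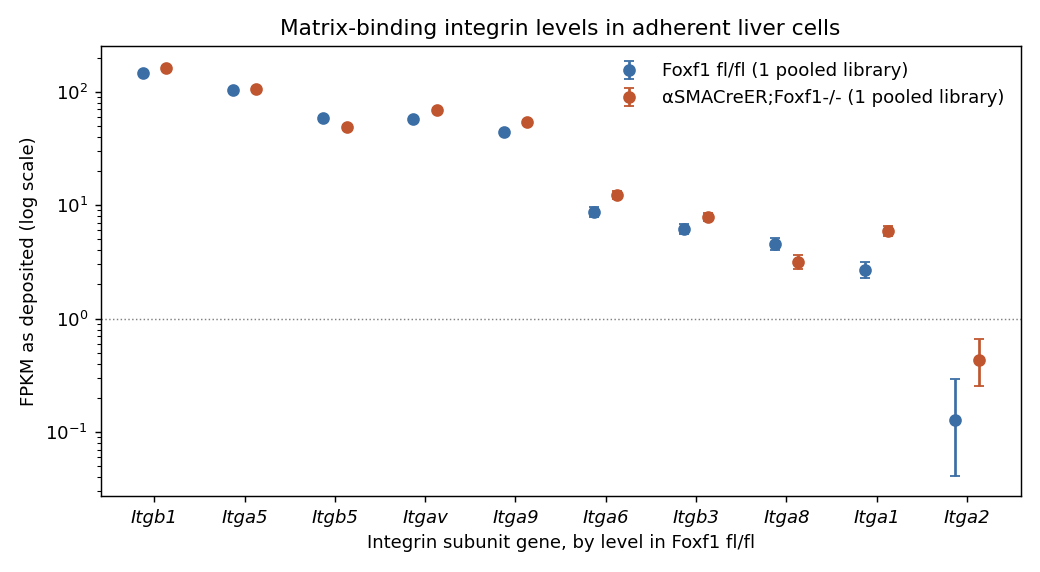
FPKM of each matrix-binding integrin gene on a log axis, ordered by its level in Foxf1 fl/fl; each point is 1 pooled library (blue Foxf1 fl/fl, red αSMACreER;Foxf1-/-) and bars are 95% counting intervals, and the dotted line marks an FPKM of 1. Points run from Itgb1, at 146 and 163, down to Itga2, at 0.127 and 0.429.

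Itgb1 (ENSMUSG00000025809, chromosome 8 from 128685654 to 128733200 in the GENCODE M21 annotation of GRCm38, plus strand) encodes the β1 chain shared by the collagen, laminin and fibronectin receptors. It was the most abundant of the members, with an FPKM of 146 in Foxf1 fl/fl (counting interval 142 to 150.4) and 163 in αSMACreER;Foxf1-/- (159 to 167), or about 5195 and 6643 reads. The log2 fold change was 0.13 (0.078 to 0.18). The libraries therefore differed slightly, beyond counting error. After the median of genes with transcripts of like length was subtracted, as described below, the value was 0.0057.

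The 7 α chain genes together had an FPKM of 220.5 in Foxf1 fl/fl and 253 in αSMACreER;Foxf1-/-, which was 1.51 and 1.55 times the level of Itgb1. Itga5, Itga9 and Itgav made up 92.7% and 91.4% of these sums. Among the members, most α chain mRNA was thus that of fibronectin, tenascin and RGD receptors in both genotypes. The 11 other integrin α genes, read further below, summed to an FPKM of 169 and 227.

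Itga5 (ENSMUSG00000000555, chromosome 15 from 103344286 to 103366763, minus strand) encodes α5 of the fibronectin receptor α5β1. Its FPKM was 103 in Foxf1 fl/fl and 107 in αSMACreER;Foxf1-/-, 46.8% and 42.3% of the members' α chain sum. The log2 fold change was 0.023 with a counting interval from −0.036 to 0.082, so that no difference beyond counting error was seen under this scaling. It was 0.11 under upper-quartile scaling and 0.22 under scaling to an equal FPKM sum. Its ligand gene Fn1, fibronectin, had 127 and 319 in the same libraries.

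Itgav (ENSMUSG00000027087, chromosome 2 from 83724397 to 83806916, plus strand) encodes αv, the common chain of the vitronectin receptors that release latent TGF-β. Its FPKM was 57.2 and 69.7 (log2 fold change 0.26, interval 0.20 to 0.32). Itga9 (ENSMUSG00000039115, chromosome 9 from 118606690 to 118901003, plus strand) encodes α9, and its FPKM was 44.1 and 54.4 (log2 fold change 0.28, interval 0.21 to 0.34). Both genes were thus about equally higher in αSMACreER;Foxf1-/-, and both have transcripts of about equal length, 7054 and 7020 bases. Against genes of like length the direction turned, to −0.13 for Itgav and −0.11 for Itga9, and 402 and 395 of the 634 genes in their length group had a higher log2 fold change.

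Itgb5 and Itgb3, whose β chains pair with αv, differed in opposite directions. Beside genes of like length both were below 0 (Itgb5 −0.29, Itgb3 −0.017). Itgb5 (ENSMUSG00000022817, chromosome 16 from 33829665 to 33949338, plus strand) encodes β5, and its FPKM was 58.2 in Foxf1 fl/fl and 48.4 in αSMACreER;Foxf1-/- (log2 fold change −0.29, interval −0.39 to −0.19). Itgb3 (ENSMUSG00000020689, chromosome 11 from 104608000 to 104670476, plus strand) encodes β3, which platelets carry together with αIIb and other cells with αv, and its FPKM was 6.16 and 7.85 (log2 fold change 0.32, interval 0.12 to 0.53). Relative to Itgb1, Itgb5 was at 0.397 and 0.297, and Itgb3 was at 0.0421 and 0.0481. Itga2b, the gene of αIIb, had an FPKM of 8.25 and 7.67. The 8 platelet markers, Itga2b among them, summed to 77.2 and 64.1, most of it Pf4 (64.5 and 51.4). Gp6, a platelet collagen receptor, was listed at 0 in both libraries. The part of platelets in the value of Itgb3 was not tested.

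The order of the abundant genes differed between the libraries. In Foxf1 fl/fl, Itgb5 and Itgav were neighbours whose counting intervals overlapped, at 55.4 to 61.0 and 55.4 to 59.1. In αSMACreER;Foxf1-/-, Itgb5 ranked below both Itgav and Itga9, and the interval of Itga9, 52.8 to 56.1, did not overlap that of Itgb5, 46.1 to 50.9. All other neighbours in either order had separate counting intervals.

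Itga6 (ENSMUSG00000027111, chromosome 2 from 71745616 to 71858416, plus strand) encodes α6 of the laminin receptors and led the sparse set. Its FPKM was 8.67 in Foxf1 fl/fl and 12.2 in αSMACreER;Foxf1-/-, from about 350 and 566 reads. The log2 fold change was 0.47 (0.27 to 0.67), short of 1.5-fold, although scaling to an equal FPKM sum took it past that threshold (0.66). Itgb4, whose β4 chain pairs with α6 alone and marks epithelial cells, had 0.659 and 1.98.

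Itga1 and Itga2 encode the α chains of the collagen receptors α1β1 and α2β1, and lie side by side on chromosome 13, 20995 bases apart and on the same strand. Itga1 (ENSMUSG00000042284, from 114953096 to 115101964, minus strand) had an FPKM of 2.68 in Foxf1 fl/fl (2.27 to 3.14) and 5.91 in αSMACreER;Foxf1-/- (5.34 to 6.53). About 152 and 385 reads lay behind these values, which did not overlap in counting error. The log2 fold change was 1.09 (0.84 to 1.40), and the ratio without the added 0.1 was 2.17-fold. Itga2 (ENSMUSG00000015533, from 114833081 to 114932100, minus strand) was barely detected, with an FPKM of 0.127 (0.041 to 0.30) and 0.429 (0.25 to 0.66) from about 5 and 19 reads. It had a log2 fold change of 1.20, and the counting interval of its ratio without the added 0.1 ran from 0.23 to 3.48. With 1 added in place of 0.1 the log2 fold change of Itga2 was 0.34, short of 1.5-fold and smaller than that of Itga6 (0.43), and with 0.01 added it was 1.66.

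As a share of the members' α chain sum, the collagen receptor genes made up 1.27% in Foxf1 fl/fl and 2.51% in αSMACreER;Foxf1-/-, nearly all of it Itga1. Relative to Itgb1, Itga1 was at 0.0183 and 0.0362. Collagen receptor α mRNA was thus a minor component in either library.

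The gene Pelo lies inside the Itga1 locus on the same strand. It shares no exon with Itga1, and it differed the other way, with an FPKM of 17.2 and 14.4. A further annotated gene at this locus, Gm49395, has 6 exons that touch Itga1 exons and had no entry in the data. Reads of such a transcript could not be told apart from those of Itga1.

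Itga8 (ENSMUSG00000026768, chromosome 2 from 12106632 to 12301922, minus strand) encodes α8, an RGD receptor chain of stellate cells and smooth muscle. It had the lowest ratio of the members, with an FPKM of 4.55 in Foxf1 fl/fl (3.99 to 5.14) and 3.14 in αSMACreER;Foxf1-/- (2.73 to 3.62), or about 250 and 199 reads. The log2 fold change of −0.54 (−0.83 to −0.28) fell short of 1.5-fold. Of the 9 stellate cell and myofibroblast markers that passed the filter, 7 had a higher value in αSMACreER;Foxf1-/- and 2 a lower one, Acta2 (7.77 and 5.65) and Tagln (5.51 and 4.31). Their part in the value of Itga8 was not tested. The antisense gene E030013I19Rik overlaps Itga8 with 2 exons, and at 0.247 and 0.293 it was far below Itga8. Gm13684 touches 1 Itgav exon from the opposite strand and had 0.0946 and 0.256. Whether reads were assigned by strand was not stated, so reads of such antisense genes could not be told apart from those of the members.

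**Figure D2:**
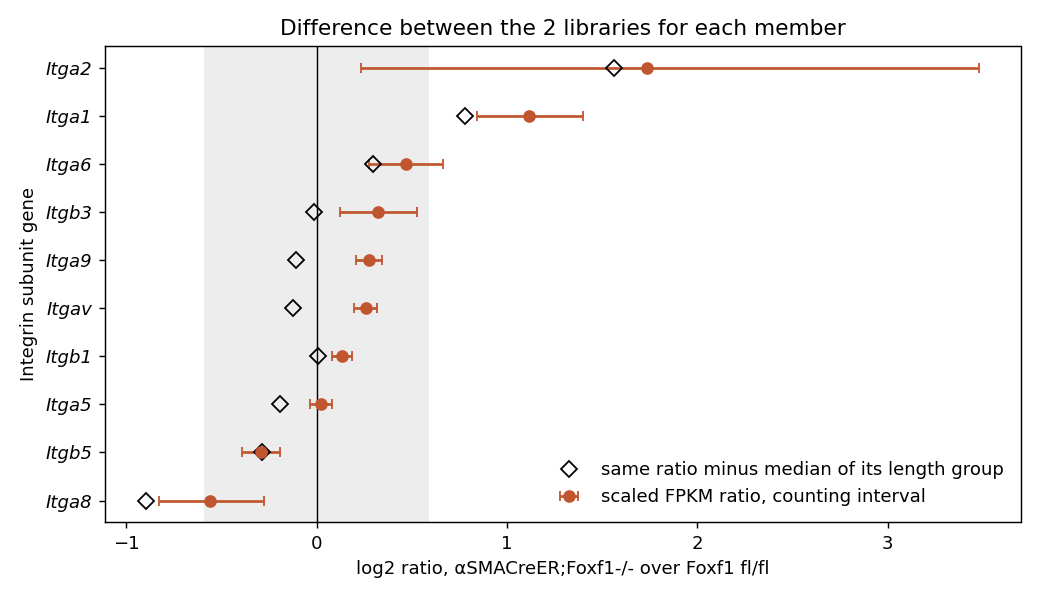
log2 ratio of scaled FPKM (αSMACreER;Foxf1-/- over Foxf1 fl/fl, 1 pooled library each, no added 0.1) for each member; red points carry 95% counting intervals, open diamonds show the ratio minus the median of genes of like transcript length, and the grey band spans less than 1.5-fold. Itga1 and Itga2 lie right of the band, Itga8 lies farthest left, and the diamonds of Itga5, Itga9, Itgav and Itgb3 lie below 0.

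The promoters of the members that differed most were read to show what sequence they carry. Forkhead factors such as FOXF1 bind DNA around a TAAACA core. RefSeq promoters on GRCm38.p6 were found for 8 of the 10 members, all but Itga6 and Itgb3, and the 250 bases before the start were searched on both strands for TAAACA and for the longer GTAAACA, which contains it. The start used for Itga9 lies inside the locus given in the data. Shown are Itga1 and Itga2, the highest ratios, Itga8, the lowest, and Itgav, the only member whose window held TAAACA, which is in capitals. They cover chr13:115101965-115102214, chr13:114932101-114932350, chr2:12301945-12302194 and chr2:83724147-83724396, the first 3 on the minus strand and Itgav on the plus strand.
Itga1: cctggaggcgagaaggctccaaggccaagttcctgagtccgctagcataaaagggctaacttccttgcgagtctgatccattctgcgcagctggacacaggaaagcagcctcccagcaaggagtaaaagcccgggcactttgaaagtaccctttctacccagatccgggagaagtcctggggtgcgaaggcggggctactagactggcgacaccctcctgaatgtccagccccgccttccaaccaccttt
Itga2: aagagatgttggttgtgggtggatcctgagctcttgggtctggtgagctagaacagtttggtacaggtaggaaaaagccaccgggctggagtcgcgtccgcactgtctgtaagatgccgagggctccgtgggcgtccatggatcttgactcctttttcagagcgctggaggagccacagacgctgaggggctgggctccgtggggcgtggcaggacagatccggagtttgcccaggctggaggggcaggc
Itga8: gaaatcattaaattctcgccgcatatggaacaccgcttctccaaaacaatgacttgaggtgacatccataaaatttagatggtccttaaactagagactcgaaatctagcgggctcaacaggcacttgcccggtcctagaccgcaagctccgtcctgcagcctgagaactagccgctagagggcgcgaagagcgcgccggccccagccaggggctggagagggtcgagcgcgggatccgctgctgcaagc
Itgav: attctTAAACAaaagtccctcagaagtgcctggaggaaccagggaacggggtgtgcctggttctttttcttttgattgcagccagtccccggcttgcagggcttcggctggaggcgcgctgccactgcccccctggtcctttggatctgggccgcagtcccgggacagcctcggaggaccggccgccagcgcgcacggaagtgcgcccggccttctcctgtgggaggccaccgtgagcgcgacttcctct

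TAAACA was thus present in 1 of 8 member windows, 245 bases before the Itgav start, against 12.0% of 32851 promoters of the same length. GTAAACA was in 0 of the 8 and in 3.17% of all promoters. These are matches of letters in a short window and leave distant sites unread. The windows of Itga1, Itga2, Itga8 and Itgav held 57.6%, 60.8%, 56.4% and 64.4% G and C.

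Against all genes, the members stood out little in the number past 1.5-fold, and more in their counting intervals and median. Among the 12692 genes whose FPKM averaged 1 or more, 12.8% were at least 1.5-fold higher in αSMACreER;Foxf1-/- and 13.2% at least 1.5-fold lower. Of the 9 members that passed this filter, 1 (Itga1) was at least 1.5-fold higher and 0 were lower. Counting intervals lay above 0 for 6 of the 9, below 0 for 2 (Itga8 and Itgb5), and held 0 for Itga5, where 29.6% of all genes had an interval above 0 and 28.3% one below. Intervals are narrower for genes with more reads, and these shares were not matched for read number. The median log2 fold change of the 9 members was 0.26, and that of all genes was 0.0050.

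Transcript length varied with the difference between the libraries. Across genes, which are not independent replicates, Spearman's rho between the longest transcript and the log2 fold change was 0.45. The 20 groups of genes by length had medians from −0.40 to 0.49, with the lowest in a group of short transcripts and the highest in the group of 7391 bases or more. The members have long transcripts, with a median of 5098 bases against 2950 for all genes. After the median of its length group was subtracted from each gene, the median of the 9 members was −0.11, and 3 of them were above 0 and 6 below. Itga5, Itga9, Itgav and Itgb3 were then on the other side of 0 (−0.19, −0.11, −0.13 and −0.017).

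Itga1 and Itga8 kept their directions beside genes of like length. Both, with Itgb3, belong to the group of 5213 to 6056 bases, which had a median of 0.34. In that group 25 of 635 genes had a higher log2 fold change than Itga1 and 24 had a lower one than Itga8. With the group's median subtracted, Itga1 was at 0.75 and Itga8 at −0.88, past 1.5-fold, as were 10.1% of all genes upward and 10.9% downward. Itga6 was at 0.29 and Itgb5 at −0.29. The length used for Itga1, 5984 bases, was cut to the deposited locus, and its longest annotated transcript has 10967 bases. With lengths as annotated, a setting chosen after seeing the data, Itga1 was at 0.60, just past 1.5-fold. The part of transcript length in these differences was not tested further.

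**Figure D3:**
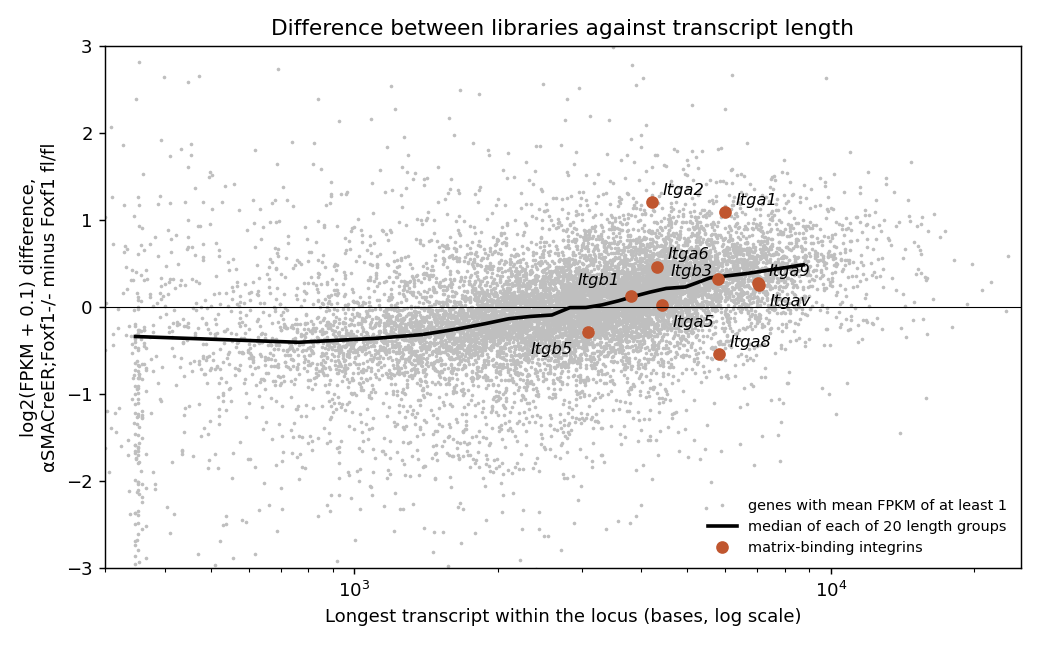
log2(FPKM + 0.1) difference between the libraries against the longest transcript (bases, log axis); grey dots are genes whose FPKM averaged 1 or more, the black line joins the medians of 20 length groups, red points are the members (Itga2 is below that FPKM), and the axes leave out the most extreme genes. Medians on the line run from −0.40 to 0.49, Itga1 lies above it and Itga8 below it.

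The other integrin chains were read beside the members, although some of them, such as Itga4 and Itgb4, also belong to matrix receptors. Of 16 other α and β genes, 12 passed the filter. Of these, 3 (25%) were past 1.5-fold and higher in αSMACreER;Foxf1-/- and 1 (8.33%) was lower, beside 12.8% and 13.2% of all genes. The median log2 fold change was 0.23. Those past the threshold were Itgb4 (1.43), Itga4 (1.02), Itgam (0.66) and Itgad (−0.59). With length subtracted only Itgb4 (1.04) was past it upward and only Itgad (−0.76) downward, and the median was 0.13. Itgb2, the β2 chain of leukocytes, had an FPKM of 249 and 310 and was thus above Itgb1 in both libraries. Itga4, a fibronectin and VCAM-1 receptor chain of leukocytes, had 7.16 and 14.9, and its length-adjusted value was 0.53. Itgal had 77.0 and 87.6, Itgax had 21.7 and 32.7 and Itgb7 had 38.0 and 35.7. Itga3, Itga7 and Itgae were between 0.910 and 3.31, and Itga10, Itga11, Itgb6 and Itgb8 were at 0.825 or below, with Itga11 listed at 0 in Foxf1 fl/fl.

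The ligands of these receptors did not all differ in the same direction. All 9 collagen genes read had a higher value in αSMACreER;Foxf1-/-, with a median log2 fold change of 0.52. Of these, Col6a3 (1.13) and Col5a2 (0.74) were past 1.5-fold, Col1a1 had 0.52 and Col4a1, a chain of the network collagen that α1β1 prefers, had 0.36. With length subtracted the collagen median was 0.20, only Col6a3 stayed past 1.5-fold (0.64), and Col4a1 (−0.028) and Col4a2 (−0.097) were below 0. Among the 5 laminin genes that passed the filter, 4 had a lower value and the median was −0.32. Lamb1 was past 1.5-fold (−0.71), and Lamc1, the γ1 chain of most laminins, had 0.12. With length subtracted the laminin median was −0.66, 3 genes were past 1.5-fold and lower, and Lamc1 was at −0.37. Under scaling to an equal FPKM sum the median was −0.13 and 0 were past 1.5-fold. The laminin receptor gene Itga6 had a higher value, as given above.

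Glycoprotein ligands of the RGD and tenascin receptors differed in both directions. Past 1.5-fold and higher were 4 of the 14 with enough reads, namely Fbn1 (1.55), Fn1 (1.30), Tnc (0.97) and Vwf (0.75), beside 12.8% of all genes. With length subtracted 2 of them remained past 1.5-fold, Fbn1 (1.06) and Fn1 (0.81), while Tnc was at 0.58 and Vwf at 0.26. Vtn, the vitronectin that αvβ3 and αvβ5 bind and that hepatocytes secrete, was at least 1.5-fold lower, with an FPKM of 97.4 and 30.4. All 9 hepatocyte markers read here were also at least 1.5-fold lower, and their part in the value of Vtn was not tested. Spp1, the osteopontin bound by α9β1 and αv integrins, had 495 and 606, a log2 fold change of 0.26. Of 6 genes of the latent TGF-β complex on which αv integrins act, 0 were past 1.5-fold, and Tgfb1 had 237 and 204 (−0.24). With length subtracted 1 of the 6, Ltbp1 (−0.62), was past 1.5-fold and lower.

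Genes of proteins that link the β tails to actin were mostly within 1.5-fold between the libraries. Among 30 activator and adaptor genes above the filter, those past 1.5-fold upward were 2, Vcl (0.94) and Tln1 (0.70), which encode vinculin and the integrin activator talin-1. As many were lower, Parva (−0.81), the α-parvin of the ILK complex, and Itgb1bp1 (−0.63), a binder of the β1 tail. Fermt2 and Fermt3, the kindlins of adherent and of blood cells, had 0.010 and −0.17, Ilk had 0.0046 and Ptk2, focal adhesion kinase, had 0.19. With length subtracted Vcl (0.60) and Parva (−1.14) were past 1.5-fold, and Tln1 (0.21) and Itgb1bp1 (−0.44) were not. Among 11 membrane partners, Cav1, which encodes caveolin-1, was past 1.5-fold (0.77). With length subtracted Cav1 (0.78) remained so, and Cd47 (−0.60) was past 1.5-fold and lower. Over the ligand, activator and partner lists together, 9 of 75 genes were at least 1.5-fold higher (12%) and 4 were lower (5.33%), beside 12.8% and 13.2% of all genes. The share of higher genes was thus near that of all genes, and the median was 0.085.

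**Figure D4:**
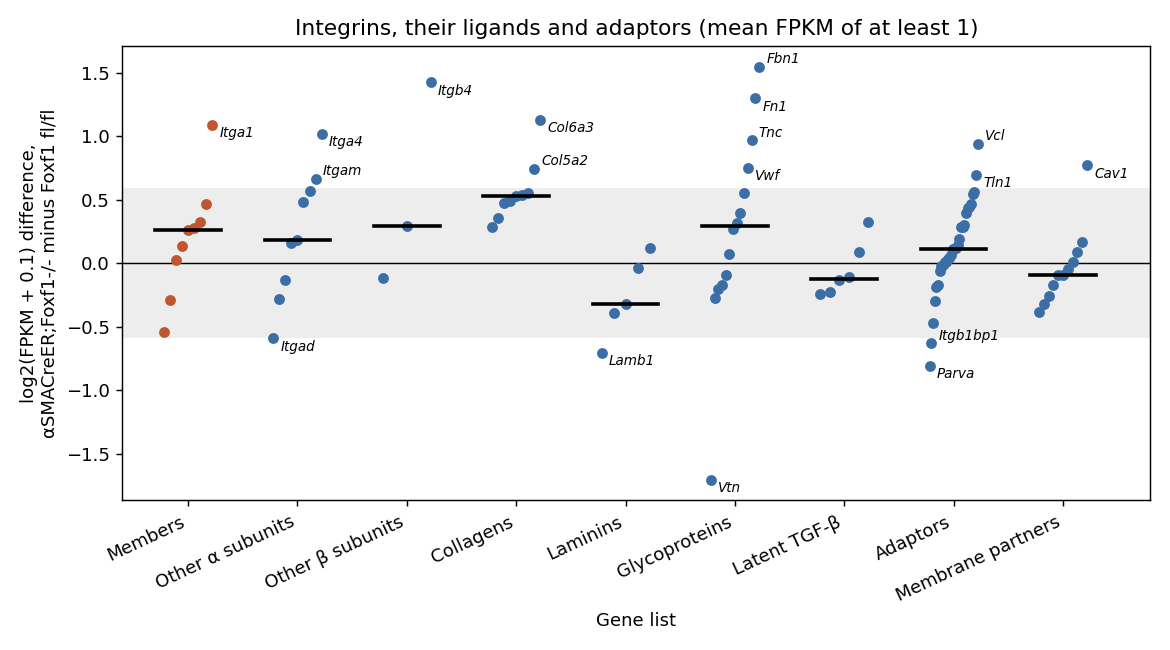
log2(FPKM + 0.1) difference (αSMACreER;Foxf1-/- minus Foxf1 fl/fl) of each gene whose FPKM averaged 1 or more, by list; red points are the members, blue points other lists, black bars list medians, and the grey band spans less than 1.5-fold, outside which genes are named. The members' median is 0.26, the collagens' 0.52 and the laminins' −0.32.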

How the data were processed

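The authors aligned 75-base single-end reads of TruSeq libraries with the Tophat/Cufflinks pipeline and deposited 1 FPKM value for each of 38320 Ensembl gene entries per library. The submitters' processing notes name mm10, TopHat and DESeq, without versions, and the annotation release is not given in the sources used here. Symbols came from GENCODE M21 (GRCm38), which named 36490 entries (95.2%). Counts over genes leave out 3 entries whose status was not OK, and the entry with the highest mean was kept for a repeated symbol.

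FPKM values are not counts, so no count model was used, and the false discovery rate of the study could not be applied. Scaling used the 11871 genes that reached an FPKM of 1 in each library. The 1.5-fold threshold follows the study. Read numbers used single-transcript genes, a fragment length of 200 bases and the longest transcript within the deposited locus, so they are upper estimates for genes with shorter isoforms. Intervals are exact Poisson for a level and exact conditional binomial (Clopper-Pearson) for a ratio.

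The members and lists were chosen with earlier results of these data known. Named were all members, list genes past 1.5-fold, and genes picked by role. The first 3 markers are named for the stellate cell, macrophage and endothelial lists, and the other lists are given as sums. Dcn, Ecm1, Acta2, Tagln, Col4a2, Pf4, Gpihbp1 and Pelo, and Spp1 as a cholangiocyte marker, were chosen after values were seen. Protein sequence was not used here. Depth, intervals and fold changes were tested on simulated data. The simulation drew Poisson counts with a fixed length for each gene, and its intervals used the true depths. It therefore cannot show how isoforms, rough depth estimates or the trend with length affect the intervals given here. The tools were matplotlib 3.10.9, scipy 1.17.1, pandas 2.3.3 and numpy 2.4.6 under Python 3.11.15.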

Additional observations from a re-analysis of the deposited data

How the results depend on the processing

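No paired analysis was possible because there was only 1 library for each genotype, so none was left out. Direction of the single members held under both pseudocounts, all scalings and summed repeated symbols, and changed only where the median of length groups was subtracted.

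With libraries scaled to the same total FPKM, the all-gene median shifted by 0.19. This gave 2690 genes at least 1.5-fold higher against 1624 and 2 members (Itga1 and Itga6) against 1, a members' median of 0.45, and log2 fold changes of 0.22 for Itga5, 0.47 for Itga9, 0.45 for Itgav, 0.32 for Itgb1 and −0.097 for Itgb5. Of the other integrins 5 were then higher and 0 lower, with a median of 0.42, and of the ligand, activator and partner genes 21 and 2, with a median of 0.28. The medians of the latent TGF-β list (0.067) and the membrane partners (0.097) reversed. Upper-quartile scaling gave 0.11 for Itga5, 0.36 for Itga9, 0.35 for Itgav and 0.22 for Itgb1, 0 other integrins lower and 15 ligand, activator and partner genes higher. FPKM as deposited and a pseudocount of 1 left 0 other integrins lower.

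With length groups subtracted, Itga1 was at 0.75, Itga8 at −0.88 and Itgb1 at 0.0057, and Itga5 (−0.19), Itga9 (−0.11), Itgav (−0.13) and Itgb3 (−0.017) reversed, as did the members' median (−0.11). Then 1 member was lower, 1 other integrin higher, and 5 ligand, activator and partner genes higher and 7 lower, with a median of −0.012. The medians of the other α chains (−0.052), the adaptors (−0.020) and the membrane partners (0.093) reversed. With lengths as annotated, chosen after seeing the data, Itga1 was at 0.60, Itga8 at −0.88, Itgb1 at 0.037, Itga5 at −0.16, Itga9 at −0.087, Itgav at −0.11 and Itgb3 at −0.014, the members' median was −0.087, 1 member was lower and 1 other integrin higher, and the medians of those lists were −0.019, −0.0027 and 0.15.

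Without a filter 3832 genes were higher and 3225 lower, with 2 members (Itga1 and Itga2) and 5 other integrins (median 0.38) higher. With a minimum mean of 5 FPKM, 685 genes were higher and 943 lower, 0 members higher, since Itga1 drops out, and 0 other integrins lower. At 2-fold there were 552 and 788, 0 other integrins lower, and 3 ligand, activator and partner genes higher and 1 lower. With a pseudocount of 1 Itga2 was at 0.34 and with 0.01 at 1.66. The cause of these changes was not tested beyond the settings themselves. Depth limits Itga2 most, at about 5 and 19 reads.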

Other observations

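Genes named after integrins that are not receptor chains of the lists above were read as well. Itgb2l, a β2-like gene of neutrophils, had an FPKM of 1.56 in Foxf1 fl/fl and 0.556 in αSMACreER;Foxf1-/-, from about 40 and 16 reads, a log2 fold change of −1.36. The 7 neutrophil markers summed to 2038.5 and 859 in the same libraries, and their part in this value was not tested. Itgb3bp had 1.91 and 1.75, Itgb1bp2 had 0.240 and 0.205, and Itgbl1 was listed at 0 in Foxf1 fl/fl and had 0.0516 in αSMACreER;Foxf1-/-.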
